A study of Drosophila melanogaster with 50 samples.

Results

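In ovaries of *Kdm3* GLKD females, 329 of the 5282 deposited H3K9me3 peaks overlapped no H3K9me2 peak of the same genotype by at least 1 bp. These 329 peaks were chosen by that overlap, between the H3K9me3 and the H3K9me2 peak list of *Kdm3* GLKD. The absence of H3K9me2 is therefore what defined them and not a result, and their own fold enrichment and width are given as a description. The other 4953 peaks overlapped H3K9me2. *Kdm3* GLKD females carried a short hairpin RNA against *Kdm3*, a histone demethylase that removes methyl groups from lysine 9 of histone H3, under the control of the germline driver nos-GAL4, and the control was their sisters, which the labels give as wild type for *Kdm3*. Chromatin came from whole ovaries, with germline and somatic cells together, pooled from many females, so that the somatic follicle cells, where nos-GAL4 is not active, contributed to every library. The labels list 3 libraries per genotype for each methylation mark and 2 per genotype for Rhino, but there was 1 peak list per mark and genotype. How the libraries entered a list is not stated in the sources used here, so no replicate check and no test between genotypes could be made. The ovary RNA base mean of 5 germline markers ran from 1244 to 56255, that of 6 ovarian somatic markers from 30.6 to 30983, and that of 5 markers of other tissues from 15.0 to 2360, with medians of 4821, 2818 and 27.9. A base mean is a level averaged by the authors across every library of both genotypes, after scaling for depth. It comes without an error, and the depths of single libraries, which the study lists, were not used here. Base means were also taken from embryos of *Kdm3* GLKD mothers and of control mothers with a hairpin against *w* (*w* GLKD). These were embryos of 0 to 2 h (small RNA) and of 3 to 5 h (RNA and small RNA), with 2 libraries per group.

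Methylation of lysine 9 of histone H3 marks heterochromatin. The dimethylated and the trimethylated forms usually lie together over transposons and pericentromeric repeats, where HP1 proteins bind them. In the female germline of *Drosophila*, Rhino, an HP1 homolog that binds H3K9me3, marks loci that are transcribed into precursors of piRNAs, the small RNAs that guide silencing of transposons. The 297 element, which recurs below, is an LTR retrotransposon of the Gypsy group.

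The sequences that follow stand for the kinds of places where the peaks lay. They are the plus strand of genome release 6 (dm6), written 5′ to 3′. The first is a 61-base stretch of a peak inside the 297 copy FBti0019758 on chr2L:12070897-12070957. None of its 31-mers occurs elsewhere on the 6 arms, and the single capital is the base that all of them share. The second holds 300 bases of the only peak that met Rhino, on chr2L:21827852-21828151, between annotated genes, with the bases under the Rhino peak in capitals. The third is the whole peak on chrX:2885324-2885585, which lay in a coding exon (capitals) of *CG14419*, a gene of the minus strand inside the span of *kirre*. The fourth is from the strongest peak of *lncRNA:CR44997* without a mark in the control, an intron on chrX:22791177-22791476. The fifth is from the peak in *Antp* on chr3R:6971856-6972155, the strongest of those without a mark in the control, and these bases lie outside annotated exons. The sixth is 1 of the 2 narrowest peaks, on chr3L:11687985-11688184, over *Sugb* and *asRNA:CR45885*, with the coding bases in capitals.
297 copy: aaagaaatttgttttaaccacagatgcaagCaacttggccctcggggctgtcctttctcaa
Rhino: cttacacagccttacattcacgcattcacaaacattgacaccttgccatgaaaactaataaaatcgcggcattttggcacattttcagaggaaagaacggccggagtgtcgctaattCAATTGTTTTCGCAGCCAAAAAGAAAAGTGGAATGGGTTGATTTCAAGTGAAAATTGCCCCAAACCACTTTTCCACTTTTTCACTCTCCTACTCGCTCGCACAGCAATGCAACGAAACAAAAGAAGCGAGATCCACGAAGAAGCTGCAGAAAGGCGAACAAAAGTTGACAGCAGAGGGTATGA
CG14419: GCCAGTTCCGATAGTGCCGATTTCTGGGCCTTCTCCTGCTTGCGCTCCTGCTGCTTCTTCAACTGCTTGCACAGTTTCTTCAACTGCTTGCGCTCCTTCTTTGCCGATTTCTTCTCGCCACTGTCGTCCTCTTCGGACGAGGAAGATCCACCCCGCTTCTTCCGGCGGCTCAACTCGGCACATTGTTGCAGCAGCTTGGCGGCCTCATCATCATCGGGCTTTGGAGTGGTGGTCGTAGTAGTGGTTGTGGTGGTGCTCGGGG
CR44997: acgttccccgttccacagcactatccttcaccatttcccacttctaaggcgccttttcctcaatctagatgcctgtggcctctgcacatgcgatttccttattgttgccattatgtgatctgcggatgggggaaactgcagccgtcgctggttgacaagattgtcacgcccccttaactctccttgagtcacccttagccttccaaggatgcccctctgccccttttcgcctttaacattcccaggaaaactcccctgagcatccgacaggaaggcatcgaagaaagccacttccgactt
Antp: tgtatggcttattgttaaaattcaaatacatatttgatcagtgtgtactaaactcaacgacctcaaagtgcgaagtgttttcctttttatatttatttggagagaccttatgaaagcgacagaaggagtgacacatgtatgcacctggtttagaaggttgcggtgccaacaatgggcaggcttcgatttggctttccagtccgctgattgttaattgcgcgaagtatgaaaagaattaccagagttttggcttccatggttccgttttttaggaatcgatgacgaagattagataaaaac
Sugb: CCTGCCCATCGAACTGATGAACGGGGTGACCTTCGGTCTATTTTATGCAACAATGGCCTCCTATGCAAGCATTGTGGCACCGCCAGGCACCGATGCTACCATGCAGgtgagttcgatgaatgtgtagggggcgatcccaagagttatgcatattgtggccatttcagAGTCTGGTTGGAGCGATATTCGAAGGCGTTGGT

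The peaks without H3K9me2 were narrow and weak. They covered 300614 bp in all and ranged in width from 200 to 6122 bp, with a median of 584 bp, against a median of 1720 bp for the peaks with H3K9me2. There were 228 of them (69.3%) under 1000 bp, while 35.5% of all H3K9me3 peaks of *Kdm3* GLKD were. Their fold enrichment over input ranged from 1.18 to 2.32 with a median of 1.49, while that of the other peaks had a median of 1.57 and reached 4.18. Their -log10 q-values had a median of 2.69, and 58 peaks reached 5. Of the 10 widest peaks, 1 was also among the 10 with the highest fold enrichment, the peak in *Antp* described below.

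**Figure D1:**
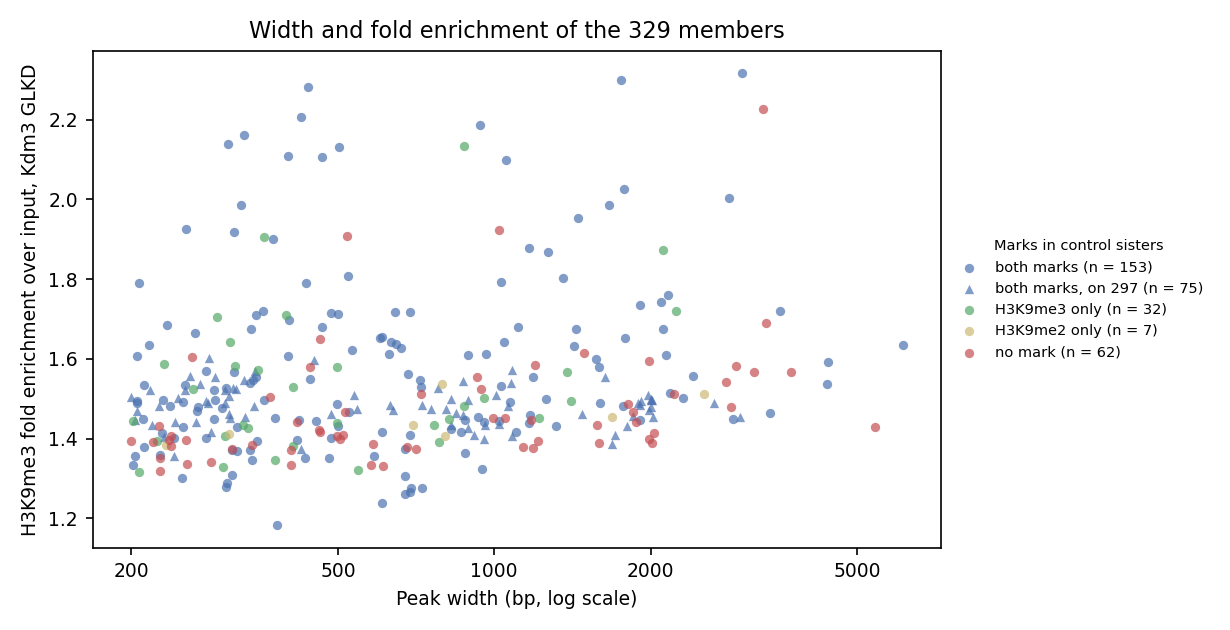
Each point is 1 of the 329 H3K9me3 peaks of *Kdm3* GLKD without H3K9me2, with its width in bp on a log scale and its fold enrichment over input, colored by the marks at the same place in control sisters and drawn as a triangle on a 297 copy. The 75 peaks on 297 lie within a fold enrichment of 1.36 to 1.6, while the peaks off 297 reach 2.32.

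Near the limit of the rule, the closest H3K9me2 peak to a chosen peak was 85 bp away, beside a 227-bp peak on X. The next lay 186 bp from a peak inside the overlapping genes *HmgD* and *HmgZ*, which encode HMG-box chromosomal proteins, and 231 bp from a peak in the potassium channel gene *SK*. Just outside, a 769-bp peak in *RhoU* shared 19 bp with H3K9me2, a 266-bp intergenic peak on 2L shared 71 bp, and a 497-bp peak in the homeobox gene *inv* shared 78 bp. The nearest H3K9me2 peak was at a median distance of 2701 bp, it was under 10000 bp away for 256 peaks (77.8%), and none of the 329 was over 99346 bp from it. The H3K9me2 list of *Kdm3* GLKD held 9564 peaks over 33.0% of the length of the arms. Distances from other places were not computed, so this closeness is no trait of the 329.

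The arms held 87 peaks (X), 68 (2L), 57 (2R), 52 (3R), 51 (3L) and 14 (4). X thus held 26.4% of them, against 42.1% of all H3K9me3 peaks of *Kdm3* GLKD and 17.6% of the length of the arms. Put the other way, 3.92% of the H3K9me3 peaks of X lacked H3K9me2, while on the other arms the share ran from 6.62% on 3L to 9.71% on 2L. H3K9me2 of *Kdm3* GLKD covered 62.0% of X and 33.0% of all arms together, and how far this lowers the share on X was not tested.

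**Figure D2:**
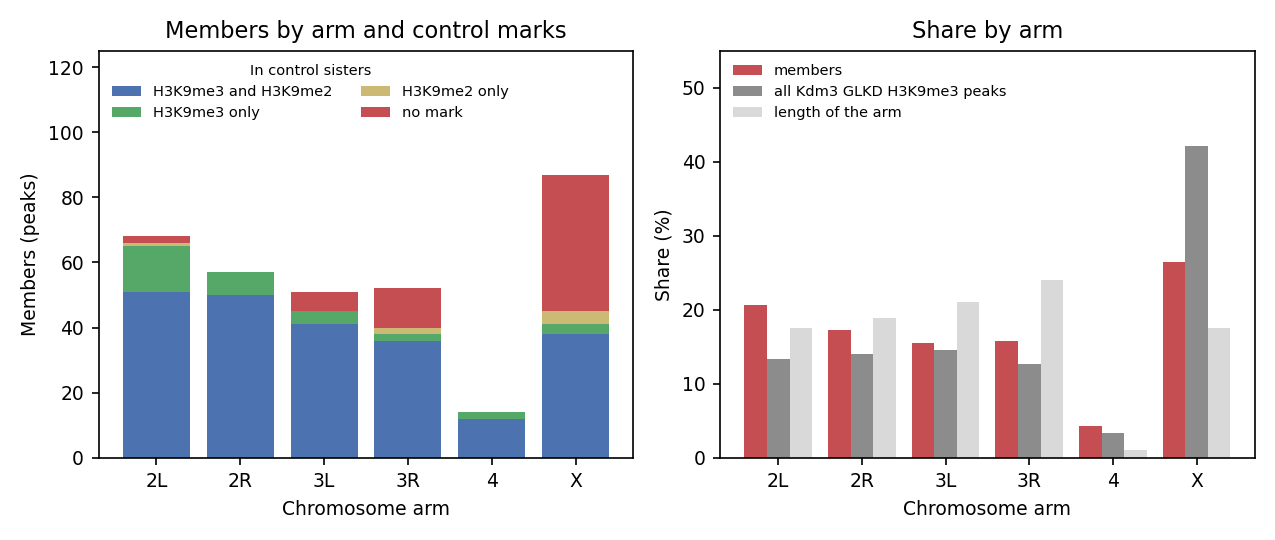
On the left, the number of H3K9me3 peaks without H3K9me2 in *Kdm3* GLKD (members) per chromosome arm, stacked by the marks that control sisters had at the same place. On the right, the share in percent of these peaks, of all H3K9me3 peaks of *Kdm3* GLKD and of the length of the arms that each arm holds. X has 42 of the 62 peaks that were unmarked in the control.

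Most of these places were already methylated in control sisters. A control H3K9me3 peak overlapped 260 of the 329 (79.0%), against 46.2% of all H3K9me3 peaks of *Kdm3* GLKD. A control H3K9me2 peak overlapped 235 (71.4%), against 55.8% of all. Both marks were present in the control at 228 peaks (69.3%), H3K9me3 alone at 32 (9.73%), H3K9me2 alone at 7 (2.13%) and neither at 62 (18.8%). Over all H3K9me3 peaks of *Kdm3* GLKD these shares were 44.6%, 1.61%, 11.2% and 42.6%. At 235 places, therefore, the deposited lists held H3K9me2 in the control and none in *Kdm3* GLKD, while H3K9me3 was called in *Kdm3* GLKD.

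Most of the peaks lay within wider control domains. Of the 260 with control H3K9me3, 221 (85.0%) lay wholly inside 1 control peak, and the control peaks that the 260 met had a median width of 2916 bp. The fold enrichment in *Kdm3* GLKD was lower than that of the control peak at 239 of the 260 and higher at 21, with medians of 1.5 and 1.82. It was lower at 91.9% of these peaks and at 87.7% of all 2439 H3K9me3 peaks of *Kdm3* GLKD with control H3K9me3. Of the 235 with control H3K9me2, 179 (76.2%) lay wholly inside 1 control peak. The control peaks that the 235 met had a median width of 5255 bp and a median fold enrichment of 1.69. The shares wholly inside were not computed over all H3K9me3 peaks of *Kdm3* GLKD. Those had a median width of 1608 bp against 584 bp here, and a narrow peak fits inside a control peak more readily. Folds of separate lists depend on the depth and the input of each list, and these were not equalized here.

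The 297 element held more of these peaks than any other annotated transposon family. A 297 copy was overlapped by 75 of the 329 (22.8%), of which 74 lay wholly inside a copy, against 2.97% of all H3K9me3 peaks of *Kdm3* GLKD. The next families were INE-1 with 10 peaks, *roo* with 5, and *hopper* and *Burdock* with 4 each. Of all 5282 H3K9me3 peaks of *Kdm3* GLKD, 280 met INE-1, 51 *roo*, 21 *hopper* and 25 *Burdock*. An annotated transposon of any kind was overlapped by 127 (38.6%), against 25.4% of all. Without the peaks on 297, the share was 52 of 254 (20.5%), against 23.1% of all peaks off 297. These shares are not matched for width, and a wide peak meets a transposon more readily. Among peaks of up to 1 kb, a transposon was overlapped by 91 of 228 (39.9%), against 13.6% of the 1876 of all. A 297 copy was overlapped by 51 of these 228 (22.4%), against 3.68%. The 75 peaks were spread over all arms but the fourth chromosome, with 21 on X and 20 on 2L as the highest numbers and 10 each on 2R and 3L as the lowest. All 75 had both marks in the control, and their fold enrichment lay between 1.36 and 1.6. None had a -log10 q-value of 5 or more.

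Of the 64 annotated 297 copies of at least 500 bp, 44 held such a peak. In control sisters, H3K9me3 covered 92.7% and H3K9me2 94.2% of the length of these 64 copies. In *Kdm3* GLKD, H3K9me3 covered 47.1% and H3K9me2 20.5%. Over all 2423 transposon copies of at least 500 bp, H3K9me3 covered 86.3% in the control and 75.7% in *Kdm3* GLKD, and H3K9me2 covered 91.9% and 66.6%. Among the 66 families with at least 10 such copies, 297 had the largest difference in covered H3K9me3 length between control and *Kdm3* GLKD, of 45.6 percentage points. For H3K9me2 its difference of 73.7 points was second to the 74.4 points of *roo*. No Rhino peak of *Kdm3* GLKD touched any of the 64 copies.

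The called peaks lay at similar positions along the copies. The copies share nearly all their sequence, so they are not repeated observations and the counts of copies below only describe the lists. There were 23 copies of about full length, from 6523 to 7013 bp, and all 23 held at least 1 of the peaks. In the control, single wide peaks with a median width of 6862 bp for H3K9me3 and 6856 bp for H3K9me2 covered a median of 98.1% of a copy for each mark. In *Kdm3* GLKD, H3K9me3 covered a median of 44.5% of a copy, from 16.5% to 56.9%, and H3K9me2 a median of 13.4%, from 0% to 22.8%. The H3K9me3 that was called fell into separate blocks at the same positions in most copies. From base 151 to 1000, H3K9me3 was called in 21 or 22 copies and H3K9me2 in 17 to 19. In steps of 50 bp from base 1801 to 2600, neither mark covered more than 50% of a step in any copy of *Kdm3* GLKD, while both did in all 23 copies of the control. Of the peaks without H3K9me2, 3 started between bases 80 and 127, and 22, in 21 copies, between bases 2639 and 4230 with a median of 2725.5. A further 9, in 9 copies, started between 4357 and 4502, and 14, in 14 copies, between 6095 and 6628. The last block lay at the end of the element. In the median copy the terminal repeats, found as sequence that occurs at both ends of the copy, ran from base 1 to 414 and from base 6582 to 6995.

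**Figure D3:**
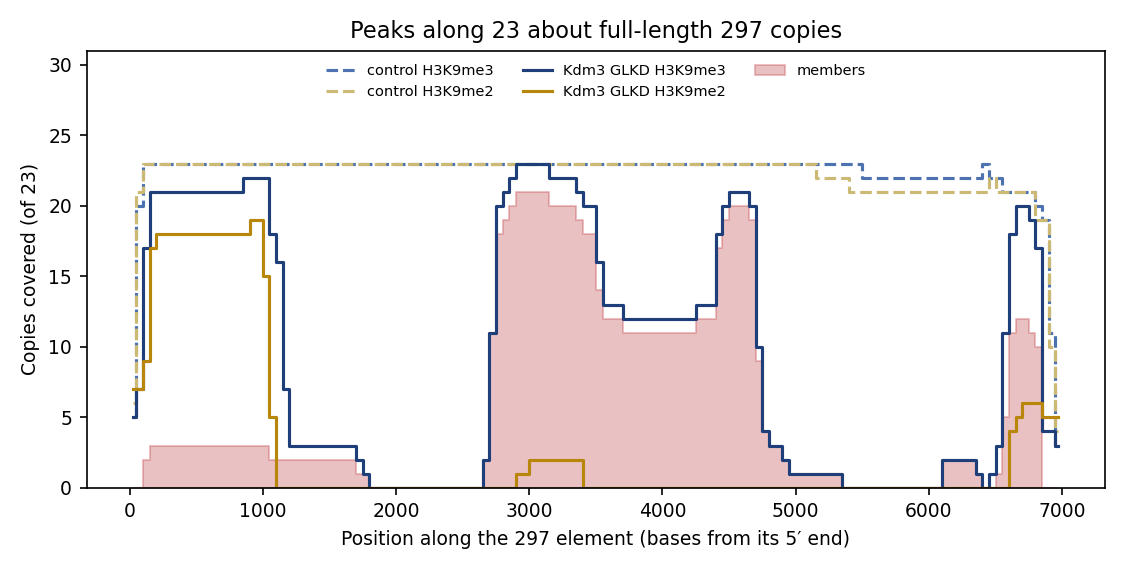
The number of 297 copies, of 23 of about full length, in which more than 50% of each 50-bp step along the element (bases from its 5′ end) is covered by a peak, for H3K9me3 and H3K9me2 of control sisters (dashed) and of *Kdm3* GLKD (solid), with the H3K9me3 peaks without H3K9me2 shaded. Control lines stay at 21 to 23 copies from base 101 to 6800 and fall at both ends, while H3K9me3 of *Kdm3* GLKD is at 0 from base 1801 to 2600 and H3K9me2 is called in at most 2 copies between bases 2501 and 4950.

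H3K9me2 of *Kdm3* GLKD touched 19 of the 23 copies and left 4 without any, of which 3 are given here. The copy FBti0019353 (chr3R:10341666-10348582, minus strand) was covered by control H3K9me3 over 97.6% and control H3K9me2 over 83.6% of its length, and in *Kdm3* GLKD by H3K9me3 over 56.0% and by no H3K9me2. The copy FBti0020218 (chr3L:22989917-22996833, plus strand) went from 97.9% for both marks to 47.7% H3K9me3 and no H3K9me2. The copy FBti0018866 (chr2R:15085034-15092025, plus strand) had 44.7% H3K9me3 and no H3K9me2 in *Kdm3* GLKD, in 4 blocks that began at bases 80, 2724, 4383 and 6545. The copies in introns of *brat* and *CARPB* and in a stretch of *Abl* annotated as UTR each held 3 peaks. *brat* encodes a translational repressor and *Abl* a tyrosine kinase.

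The 75 peaks on 297 are not independent of each other. A median of 0% of their 31-mers occurred only once on the 6 arms, and at most 31.7% did. Over the whole of the 23 copies, 0% to 1.34% of 31-mers were unique. The single capital in the 297 sequence above is of this kind. How reads matching several sites were placed is not stated in the sources used here, and the number of 297 copies that the flies themselves carried was not measured. Of the 254 peaks off 297, 182 had over 95% unique 31-mers, and these are described apart where it matters. Among the 182, control H3K9me3 was present at 63.7% and control H3K9me2 at 50.0%, against 26.3% and 39.2% of the 3706 H3K9me3 peaks of *Kdm3* GLKD with as much unique sequence.

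The 62 peaks with no mark in the control differed from the 228 with both. None overlapped a transposon, against 50 of all 2251 unmarked H3K9me3 peaks of *Kdm3* GLKD. Over 95% unique 31-mers were found in 61 of the 62, against 2178 of the 2251. Their median GC content was 45%, against 36.6% for the 228 with both control marks and 50.4% for the 2251. Of the 62, 55 (88.7%) lay over a gene, against 89.1% of the 2251. X held 42 of the 62 (67.7%), against 54.2% of all unmarked peaks, 3R 12, 3L 6 and 2L 2, while 2R and 4 held none. They had a median width of 693 bp and a median fold enrichment of 1.43, from 1.32 to 2.23. Most fell into 2 stretches of X: 26 lay over *kirre*, *rst* or *N*, and 9 over *lncRNA:CR44997*.

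The first stretch began in *kirre* (FBgn0028369, chrX:2740384-3134532, plus strand), which encodes an immunoglobulin-type adhesion protein of myoblast fusion. Of the 329 peaks, 27 overlapped *kirre*, the most for any gene, and 24 of these were unmarked in the control. All H3K9me3 peaks of *Kdm3* GLKD over *kirre* numbered 78. Of the 27, 4 also overlapped *rst* (chrX:2950399-2973834, minus strand), which encodes a related adhesion protein and lies inside the span of *kirre*. There were 2 in *N* (chrX:3134870-3172221, plus strand), which encodes the Notch receptor. Together 29 peaks overlapped these 3 genes. Their widths ran from 220 to 5404 bp with a median of 1589 bp, and their fold enrichment from 1.32 to 1.72 with a median of 1.44. The widest, on chrX:2959652-2965055, lay in introns of *rst* and *kirre*. The strongest unmarked in the control, on chrX:3064370-3067701 with a fold enrichment of 1.69, lay over a coding exon of *CG4116* within *kirre*.

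From the first to the last of these 29 peaks, over 254631 bp, H3K9me3 of *Kdm3* GLKD covered 49.1% and H3K9me2 of *Kdm3* GLKD 21.3%. These values describe the stretch and test nothing, since its ends are peaks chosen for H3K9me3 without H3K9me2. In the control, H3K9me3 covered 5.32% and H3K9me2 16.2% of the same stretch. In steps of 50 kb from the start of *kirre*, H3K9me2 of *Kdm3* GLKD fell from 44317 bp in the first step to 1751 bp in the step from 250 to 300 kb, and it was 25970 bp in the step from 400 to 450 kb. H3K9me3 ranged over the same steps from 14567 to 38927 bp and had its lowest values in the second and the sixth step. Within *kirre*, Rhino of *Kdm3* GLKD was called only in the step from 50 to 100 kb, over 1988 bp at the white gene (*w*), and not within the stretch of the 29 peaks. The study attributes piRNAs of *w* sequences to the *BX2* array of P(lacW) transgenes, which carry a copy of *w*, and reads of that copy cannot be told apart here from those of the X locus.

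The second stretch was *lncRNA:CR44997* (FBgn0266348, chrX:22657324-22797682, plus strand), a long noncoding RNA gene near the base of X. It held 11 of the peaks, from 227 to 1478 bp wide and with a fold enrichment of 1.35 to 1.65, and 9 of them were unmarked in the control. The other 2 lay on a 297 copy and had both control marks. Over this gene H3K9me3 covered 40.6% and H3K9me2 25.1% in *Kdm3* GLKD, and 20.2% and 42.0% in the control. Rhino of *Kdm3* GLKD was called there in 4 peaks over 2348 bp (1.67%), none of which met the 11. A peak of 1854 bp unmarked in the control lay further along, over the overlapping genes *fog*, which encodes a secreted signal of gastrulation, and *CG42346*.

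Outside both stretches, 27 peaks were unmarked in the control, and 20 of these lay over a gene. The strongest was in *Antp* (FBgn0260642, chr3R:6896253-6999228, minus strand), the Hox gene that specifies the thorax. It was 3295 bp wide, at chr3R:6970359-6973653, touched a UTR, had a fold enrichment of 2.23 and a -log10 q-value of 15.3, and the nearest H3K9me2 peak was 58608 bp away. A second peak in *Antp* was 239 bp wide with a fold enrichment of 1.38. A peak of 1023 bp over the odorant receptor gene *Or69a* had a fold enrichment of 1.92, and one of 521 bp in an intron of the phosphodiesterase gene *Pde6* had 1.91. A peak of 3159 bp spanned *lok*, which encodes the checkpoint kinase Chk2, and *vls*, which encodes a component of the methylosome, with a fold enrichment of 1.57. The others included peaks in *chinmo*, *trh*, *btsz*, *dpr9* and *KrT95D*.

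The 32 peaks with H3K9me3 and no H3K9me2 in the control lacked H3K9me2 in both genotypes. This combination was rare among all H3K9me3 peaks of *Kdm3* GLKD, with 85 of 5282, so 32 of those 85 were among the 329. By arm, 14 were on 2L, 7 on 2R, 4 on 3L, 3 on X, 2 on 3R and 2 on 4. They were small, with a median of 403.5 bp, and 30 had over 95% unique 31-mers. The strongest, with a fold enrichment of 2.13, was an 874-bp peak over *lncRNA:CR45617* and *lncRNA:CR45616* on X. A 2113-bp peak with 1.87 lay over *beat-Ib* and a pair of noncoding genes on 2L. There were 2 in *dve*, which encodes a homeodomain protein, and 1 each in *Blimp-1*, *CadN*, *Cdk4*, *Tis11* and *pont*, of which *Cdk4* encodes a cyclin-dependent kinase and *CadN* a neural cadherin.

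Of the 10 peaks with the highest fold enrichment, 8 had both marks in the control. The first, with 2.32, was 3006 bp wide in an intron of *Myo81F*, an unconventional myosin gene whose span of 1965857 bp lies in the pericentromeric heterochromatin of 3R. An intergenic peak on 2L (chr2L:22248004-22249754) had 2.30 and an intergenic peak of 437 bp on the fourth chromosome (chr4:314328-314764) had 2.28. The others were the *Antp* peak, a peak on a *Doc* copy in *CG12017* with 2.21, an intergenic peak on 2R with 2.19, a peak over *CG5808* and *asRNA:CR46096* with 2.16, a peak of 307 bp over a UTR of *rux*, an inhibitor of the cell cycle, with 2.14, the *lncRNA:CR45617* peak, and a peak over *CG8079* and *lncRNA:CR44463* with 2.13. The widest of all, 6122 bp on chr2L:18302835-18308956, lay over *lncRNA:CR43353* with both control marks and was 99346 bp from H3K9me2. The third and the fourth widest, of 4401 and 4369 bp on 3L, are near-identical sequences, since 98.6% of the 31-mers of the first occurred in the second.

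Rhino rarely met these peaks. A Rhino peak of *Kdm3* GLKD overlapped 1 of the 329 (0.304%), against 9.05% of all H3K9me3 peaks of *Kdm3* GLKD, and a control Rhino peak overlapped none, against 2.20% of all. The single case, on chr2L:21827852-21828152, was 301 bp wide with a fold enrichment of 1.33. It shared 184 bp with a Rhino peak of 397 bp and 1.76-fold enrichment, had H3K9me3 and no H3K9me2 in the control, and lay 448 bp from H3K9me2. This peak lies outside annotated genes, inside the region of *tsh* that the study lists as gaining piRNAs. Within 1000 bp, Rhino was found at 8 peaks (2.43%), against 10.1% of all, and within 100000 bp at 158 (48.0%), against 59.8%. Among peaks of up to 1 kb, Rhino overlapped 1 of 228 (0.439%), against 4.53% of the 1876 of all.

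An annotated gene was overlapped by 211 peaks (64.1%), against 80.1% of all H3K9me3 peaks of *Kdm3* GLKD. A coding exon was touched by 48 (14.6%), against 49.0% of all, and among peaks of up to 1 kb by 25 of 228 (11.0%), against 39.8%. A further 20 touched a UTR and no coding exon, 12 a noncoding exon only, and 131 (39.8%) lay in introns alone, against 23.7% of all. The remaining 118 (35.9%) were outside genes, against 19.9%. By length, 7.29% of the 300614 bp was coding and 30.3% was annotated transposon.

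The peaks covered 176 genes, of which 148 were protein-coding and 26 were ncRNA genes, and 149 of the 176 had 1 peak. After *kirre* and *lncRNA:CR44997*, the genes with the most peaks were *Myo81F* and *rst* with 4 each and *Abl*, *B4*, *brat*, *CARPB* and *dve* with 3 each. Of all H3K9me3 peaks of *Kdm3* GLKD, *Myo81F* held 34 and *rst* 5. In the ovary RNA table, 144 of the 175 listed genes (82.3%) had a base mean of at least 10, against 59.6% of all genes in that table and 77.3% of the genes under any H3K9me3 peak of *Kdm3* GLKD. Per kb of gene span, the median level was 22.7 for the covered genes, 40.5 for the genes under any such peak and 18.3 for all genes. Undivided by span, the median base means of these groups were 742, 357 and 42.7. The base mean pools both genotypes, so that it gives a level and no difference, and genes nested in a larger gene may share reads with it.

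The highest ovary RNA level per kb was that of *RpS13*, a ribosomal protein gene, with 21686, followed by *lok* with 4371, *Ahcy*, which encodes S-adenosylhomocysteine hydrolase, with 3538, and *l(2)gl*, a tumor suppressor of cell polarity, with 2698. *HmgD* had 2239, *anne* 1735, *bif* 1323, *PMCA*, a calcium pump, 862, *brat* 546 and *AGO3*, the Argonaute protein of the piRNA ping-pong cycle, 159. *AGO3* carried a single narrow intronic peak, with a fold enrichment of 1.49 and both control marks. Several long genes were low per kb, with 28.1 for *Myo81F*, 28.6 for *CG17684*, 27 for *lovit*, 26.4 for *Pzl*, 22.7 for *DIP-lambda* and 17.6 for *Snap25*. In the X stretch, *kirre* had 23.8, *rst* 11.5 and *N* 238, and *Antp* had 2.27.

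In the small RNA table of 23- to 29-nt ovary reads, the median level of the covered genes was 11.4 per kb of span, against 5.66 for genes under any H3K9me3 peak of *Kdm3* GLKD and 2.12 for all genes. The highest were *RpS13* with 832, *anne* with 600, *lncRNA:CR46482* with 582, *Pzl* with 487, *lovit* with 485 and *DIP-lambda* with 404 per kb. *Myo81F* had 268, *l(3)80Fg* 247 and *Snap25* 242. *CG41520* on 2R had 174 per kb. Of the genes of the X stretches, *lncRNA:CR44997* had 183 per kb, *kirre* 16.0, *N* 4.74 and *rst* 0.93. *Antp* had 2.45 and *Pde6* 0.36. The 31 genes covered by peaks unmarked in the control had a median of 5.64 per kb.

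In 3- to 5-h embryos of *Kdm3* GLKD and *w* GLKD females, 141 of the 175 listed genes (80.6%) had an RNA base mean of at least 10, against 62.3% of all genes and 76.2% of those under any H3K9me3 peak of *Kdm3* GLKD ovaries. *N* had 330 per kb, *rst* 88.0, *Antp* 14.5, *kirre* 0.70 and *lncRNA:CR44997* 0.04. Small RNAs of 0- to 2-h embryos were sparse, with a median of 0.12 per kb for the covered genes, and 44 of the 175 were listed at 0. Over all 17360 listed genes the median was 0.093 per kb and 7964 were at 0, and over the 3043 under any H3K9me3 peak it was 0.47 and 655 were at 0. In 3- to 5-h embryos the median of the covered genes was 0.11 per kb and 39 were listed at 0, against a median of 0.15 and 7303 at 0 over all genes. Undivided by span, the median base means at 0 to 2 h were 3.46 (covered genes), 2.97 (any H3K9me3 peak) and 0.317 (all genes). At 3 to 5 h they were 2.75, 2.59 and 0.395, so the order of these groups depends on the division. The span includes introns, and whether intron reads were counted alike in ovary and embryo values was not examined.

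None of the 19 annotated genes for writers, erasers and readers of H3K9 methylation and for piRNA-guided silencing, among them *egg*, *G9a*, *Kdm3*, *rhi* and *piwi*, overlapped one of the 329, and 3 overlapped any H3K9me3 peak of *Kdm3* GLKD. A list of 21 genes taken from the regions that the study describes as gaining piRNAs was also compared, which is only a part of those regions. None of the 21, such as *tsh*, *bi*, *disco* and *jing*, overlapped one of the 329, while 20 of them overlapped some H3K9me3 peak of *Kdm3* GLKD. Of all 18164 genes, the 329 peaks covered only 176 and any H3K9me3 peak of *Kdm3* GLKD covered 3150. A count of 0 in lists this short is therefore no result about their genes. The study's fuller list also holds *Antp*, *trh*, *fog* and *lncRNA:CR44997*, which did carry such peaks, so the count over the shorter list does not describe that set. It is also a count of genes and not of whole regions. The only peak that met Rhino lay between genes inside the region of *tsh*. Other peaks between genes lay inside the region of *zfh2*, a gene of the shorter list, inside the region of *Xrp1* and inside an intergenic region of 2R. The list of piRNA-gaining genes comes from the study's data on these flies and is not independent evidence. The list of writers, erasers and readers names genes by function, and both lists were chosen with earlier results known.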

How the data were processed

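The ChIP-seq peak lists of both methylation marks and of Rhino, 1 per genotype, were used as deposited. The authors mapped reads with BWA (0.7.17.4), removed duplicates with Picard (2.18.2.1) and called peaks over input with MACS2 (2.1.1.20160309.6) on dm6. Each peak carries, as deposited, a fold ratio against input and a -log10 q-value. The base mean, a signal of mean normalized counts over all libraries of a table, is the authors' mean, deposited without values per library. The remaining columns of these tables hold the authors' log2 fold changes, standard errors, Wald statistics and p-values and were not used.

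Overlaps (at least 1 bp), gaps and covered lengths were computed in Python 3.11.15 and were tested on simulated intervals against bedtools 2.31.1. Genes and transposons were those of Ensembl release 115, which has the arm lengths of dm6, and base means were divided by the gene span in kb. No tests were made, since each list stands alone. Shares over all 5282 H3K9me3 peaks are given beside those of the 329.

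The peaks, lists and comparisons were chosen with earlier results of these data known. The text names the 10 peaks with the highest fold enrichment, the 10 widest and those with Rhino, the genes under them, the 10 covered genes highest in each ovary table, the 10 with the most peaks and covered genes of the lists. Further peaks and genes were named after their values were seen.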

Additional observations from a re-analysis of the deposited data

How the results depend on the processing

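No paired analysis was possible because each list and table pools its libraries, and for the same reason no library could be left out. Of 45 alternative values, 26 planned and 19 chosen after seeing the data, 20 stayed close to the reported one. The number of peaks depended on the thresholds of both lists. Counting only H3K9me2 peaks with a -log10 q-value of at least 5 gave 1582 H3K9me3 peaks without it (2990378 bp), while keeping only H3K9me3 peaks with such a value gave 58 (61312 bp) and a fold enrichment of at least 2 gave 15 (18391 bp). Among the 58, control H3K9me3 was present at 93.1%, control H3K9me2 at 82.8%, 19.0% were on X and 0% were on 297, so that every 297 peak rests on weaker calls. With peaks of at least 1 kb, control H3K9me3 was present at 72.3% and Rhino at 0%. Rhino was within 1 kb of 2.43%, and Rhino peaks of at least 2-fold met 0%. Without the peaks on 297, control H3K9me3 was present at 72.8% and control H3K9me2 at 63.0%. Without those over *kirre*, *rst* or *N* these were 86.3% and 77.3%, with 19.3% on X. Among peaks of over 95% unique 31-mers they were 63.7% and 50.0%, with 33.0% on X and 73.1% over a gene. Protein-coding genes alone were overlapped by 57.1%, and 72% of covered genes had a base mean of at least 100. The cause of these differences was not tested. The depth of single libraries was not used here, and an uncalled mark is not an absent one.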

Other observations

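Other transposon families with few copies in these peaks also had less called methylation in *Kdm3* GLKD than in control sisters. Over *Transpac* copies of at least 500 bp, H3K9me3 covered 92.9% in the control and 53.1% in *Kdm3* GLKD, and H3K9me2 99.9% and 31.9%. For *Burdock* the values were 89.2% and 54.4% for H3K9me3 and 94.2% and 29% for H3K9me2, and for the DNA transposon *hopper* 89.3% and 60.8%, and 93.1% and 45.5%. For *roo*, H3K9me3 went from 51.3% to 10.9% and H3K9me2 from 82.8% to 8.36%, and only 0.16% of its length lay in the peaks described here. *HeT-A*, an element of the telomeres, differed from these in Rhino, which covered 28.3% of its length in *Kdm3* GLKD, with 98.8% and 75.5% for H3K9me3.

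The fourth chromosome, which is largely heterochromatic, held 14 of the peaks and none of those unmarked in the control. They included single peaks in *pan*, a transcription factor of Wnt signaling, in *PMCA* and in *Cadps*, and none lay on a 297 copy.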
